A study of Homo sapiens with 9 samples.

Results

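The genes described here are NRF2, its inhibitor KEAP1 and a panel of NRF2 targets and antioxidant enzymes, 32 genes chosen by symbol out of 24204 genes with a deposited value. All 32 passed the filter on low values and were tested. They were followed in HepG2, a human liver cancer cell line, after knockdown of TRIB3, a pseudokinase of the stress response to amino acid shortage. Cells were infected with lentivirus for 48 h and selected with puromycin for 48 h. Every group therefore carried a virus and had been through selection, and the groups differed only in the short hairpin RNA by their labels: shCtrl was the control, and shTRIB3-1 and shTRIB3-2 were directed at separate sites of TRIB3. RNA was sequenced from 3 libraries per group, 9 in all, and levels are given as FPKM, which are fragments scaled for gene length and for the fragments mapped in the library. The labels describe high-glucose medium with 10% serum and no glutamine withdrawal, and the study's discussion also speaks of TRIB3 depletion without it, while its methods for RNA-seq describe glutamine-deprived cells, so the medium at harvest is not settled.

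NRF2, encoded by NFE2L2, is a transcription factor that is held at a low level by KEAP1, the adaptor that presents it for ubiquitination and degradation. Oxidants and electrophiles modify cysteines of KEAP1, NRF2 escapes degradation, pairs with a small MAF protein and binds antioxidant response elements (AREs) near its target genes. Those targets make and reduce glutathione, run the thioredoxin system, supply NADPH, and detoxify quinones, heme and carbonyls. Liver cells depend on them to handle the products of drug and lipid oxidation, and because NRF2 is regulated mainly through its protein, its own mRNA level need not follow its activity.

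The 2 hairpins are shown first, because each comparison below rests on them. Each target, as designed by the study, was found in an exon of TRIB3 on chromosome 20 (GRCh38, plus strand): that of shTRIB3-1 at chr20:388072-388092 in coding exon 2, and that of shTRIB3-2 at chr20:391473-391493 in coding exon 3. They do not overlap.
shTRIB3-1: tggatgacaacttagataccg
shTRIB3-2: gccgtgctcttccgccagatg

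Both hairpins lowered TRIB3, and shTRIB3-2 lowered it further. TRIB3 was at 67.9, 65.8 and 66.6 FPKM in the shCtrl libraries, at 34.1, 32.7 and 34.0 with shTRIB3-1, and at 20.6, 20.7 and 20.4 with shTRIB3-2. The groups did not overlap, and TRIB3 was at 50.3% of its shCtrl mean with shTRIB3-1 and at 30.8% with shTRIB3-2. All comparisons used limma on log2(FPKM + 0.1) over the 11265 genes that reached 1 FPKM in at least 3 libraries, with Benjamini-Hochberg adjustment over all of them. A gene passed at an adjusted p under 0.05 and was called when its log2 fold change was also above 1 in size. Fold changes are on the log2(FPKM + 0.1) scale, and levels are mean ± SD over the 3 libraries of a group.

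The libraries held 34206726 to 36311029 fragments each, and every member had at least 1872 fragments in every library. The part of counting error in the spread between libraries was not measured. All 9 hepatocyte and liver cancer cell markers were expressed, while 6 of 6 fibroblast markers and 4 of 4 endothelial markers were under 1 FPKM in all libraries. Among 5 leukocyte markers, PTPRC, LST1 and CD3E were under 1 FPKM, and the 5 summed to between 30.8 and 41.1 FPKM, nearly all of it CD68. Markers of dividing cells moved strongly with the groups: 7 of 7 were lower with each hairpin, and their summed level was 531 to 533 FPKM in shCtrl, 165 to 167 with shTRIB3-1 and 125 to 130 with shTRIB3-2. The 9 hepatocyte and liver cancer cell markers summed to 7810.6 ± 387.3 FPKM in shCtrl, 8037.4 ± 233.4 with shTRIB3-1 and 10021.8 ± 139.5 with shTRIB3-2. Most of that sum was ALB, at 5213.4, 5072.6 and 6645.1 FPKM in turn, and the markers did not move together. Against shCtrl, 2 passed as higher and 4 as lower with shTRIB3-1, and 5 as higher and 2 as lower with shTRIB3-2. Between the hairpins, 7 of 9 passed as higher with shTRIB3-2 and 0 as lower, beside 25.1% and 20.7% of all genes tested. The part of these shifts in the results below was not tested. In bulk RNA, a smaller share of cells that express a gene and less of its RNA per cell cannot be told apart.

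The members spanned a wide range of levels in the control cells. GPX2, a glutathione peroxidase of epithelial cells, was the most abundant at 1111.4 ± 5.11 FPKM, followed by the peroxiredoxin PRDX1 at 812.2 ± 31.0, the quinone reductase NQO1 at 433.3 ± 10.6 and thioredoxin (TXN) at 377.0 ± 13.3. These 4 were each above the next gene in every library. AKR1C3, PRDX3, AKR1C2 and AKR1C1 followed at 314.2 to 353.8 FPKM, where each overlapped the next in the order, although AKR1C1 was below AKR1C3 and PRDX3 in every control library. The lowest were KEAP1 at 20.04 ± 0.424, GCLM at 19.6 ± 0.314 and the cystine transporter SLC7A11 at 10.99 ± 0.276 FPKM. KEAP1 and GCLM overlapped, and SLC7A11 was below both. Levels per length depend on the gene length used: that behind the SOD2 values was 17592 bases and that behind AKR1C1 was 6543, against 1927 for AKR1C3.

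**Figure D1:**
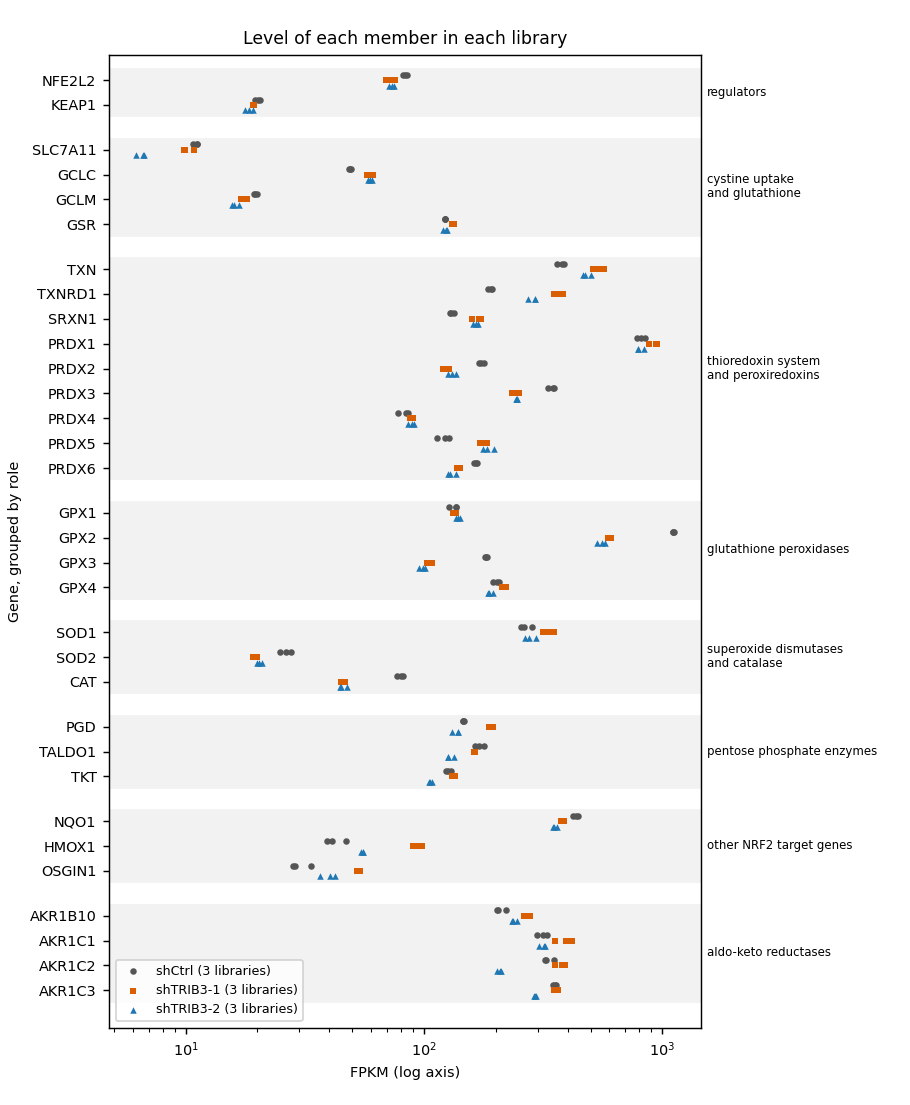
FPKM (log axis) of each of the 32 genes in each of the 9 libraries, grouped by role, with circles for shCtrl, squares for shTRIB3-1 and triangles for shTRIB3-2. Levels run from SLC7A11, at 6.19 to 11.2 FPKM, to GPX2, at 534.1 to 1117.2 FPKM, and the 3 libraries of a group lie close together.

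Most members moved by modest amounts and in both directions. The comparison of shTRIB3-1 with shCtrl gave 27 of 32 that passed, 17 up and 10 down, and that of shTRIB3-2 also gave 27, 9 up and 18 down. Of all genes tested, 74.4% passed with shTRIB3-1 (32.9% up, 41.5% down). For shTRIB3-2 the share was 75.9%, with 35.4% up and 40.5% down, so passing was common across the transcriptome. The median log2 fold change of the members was 0.089 with shTRIB3-1 and -0.11 with shTRIB3-2, against -0.056 and -0.035 over all genes tested. Only HMOX1 was called with shTRIB3-1 and only GPX2 with shTRIB3-2, where 11.5% and 12.3% of all genes tested were called. The split with shTRIB3-1 depended on the scaling of the libraries: it was 13 higher and 13 lower after rescaling to TPM, and 12 higher and 11 lower after quantile normalization.

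Between the hairpins, which share the shCtrl libraries, 19 members passed in the same direction, beside 62.4% of all genes tested. Of these, 9 were higher (GCLC, TXN, TXNRD1, SRXN1, PRDX4, PRDX5, HMOX1, OSGIN1 and AKR1B10) and 10 were lower (NFE2L2, GCLM, PRDX2, PRDX3, PRDX6, GPX2, GPX3, SOD2, CAT and NQO1). Another 4 passed in opposite directions (GPX4, PGD, TKT and AKR1C2), beside 1.76% of all genes. GSR, PRDX1, SOD1 and AKR1C1 passed with shTRIB3-1 alone, KEAP1, SLC7A11, TALDO1 and AKR1C3 with shTRIB3-2 alone, and GPX1 with neither.

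**Figure D2:**
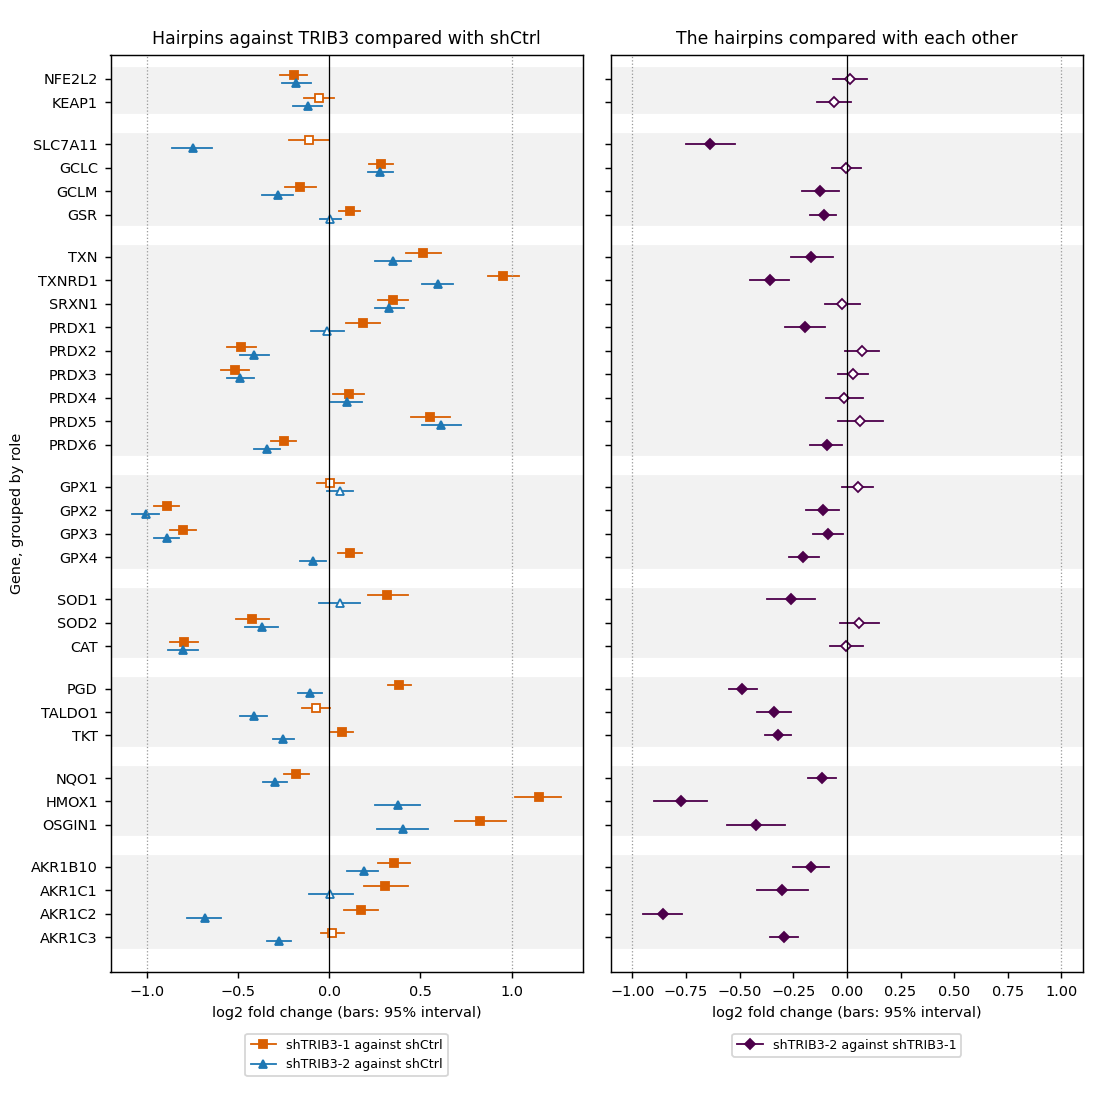
Log2 fold change of each member with its 95% interval from limma, on the left for shTRIB3-1 (squares) and shTRIB3-2 (triangles) against shCtrl, on the right for shTRIB3-2 against shTRIB3-1 (diamonds), with open symbols where the adjusted p was not under 0.05 and dotted lines at a log2 fold change of 1 in either direction. On the left the values run from -1.0009 (GPX2) to 1.15 (HMOX1), and on the right every filled symbol is below 0.

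NFE2L2 itself fell slightly with both hairpins. It was at 84.5, 83.2 and 81.3 FPKM in shCtrl, at 69.2, 73.1 and 75.5 with shTRIB3-1, and at 71.5, 73.6 and 74.9 with shTRIB3-2. All 6 knockdown libraries were below all 3 controls, and limma gave a log2 fold change of -0.19 (SE 0.0356, adjusted p = 3.44e-04) with shTRIB3-1 and -0.18 (SE 0.0356, adjusted p = 5.95e-04) with shTRIB3-2. Of the 14975 annotated exon bases of NFE2L2, 24.8% are overlapped by a gene on the other strand. Another gene on the same strand shares 13.6%. The length behind its FPKM was 3180 bases, so these shares need not hold for the bases counted. The strand setting of the counting is not given in the sources used here.

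KEAP1 was at 20.4, 20.1 and 19.6 FPKM in shCtrl, at 19.4, 19.1 and 19.3 with shTRIB3-1, and at 19.1, 17.7 and 18.5 with shTRIB3-2. Its change was -0.056 (95% interval -0.14 to 0.024) with shTRIB3-1, which did not pass except after TPM scaling (-0.11, adjusted p = 0.0394), and -0.12 (-0.20 to -0.038, adjusted p = 0.0113 by limma) with shTRIB3-2, which did, although not after median centring of the libraries (-0.067, adjusted p = 0.0959). The transcripts of the factor and of its inhibitor both stayed close to their control levels, NFE2L2 at 87.5% and 88.3%, and KEAP1 at 96.1% and 92.1%.

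Other NRF2 regulators were taken from a list of 12 genes, of which 11 were tested. By limma, shTRIB3-1 raised 9 and lowered 1, and shTRIB3-2 raised 9, while BTRC (-0.015) and NFE2L1 (-0.011) did not pass with shTRIB3-2. The share that passed was 90.9% and 81.8%, near the 74.4% and 75.9% of all genes tested. Of all genes tested, 32.9% were up and 41.5% down with shTRIB3-1, and 35.4% and 40.5% with shTRIB3-2. The small MAF partners of NRF2 were all higher: MAFF by 1.34 and 1.43 on the log2 scale, MAFK by 1.11 and 1.01, and MAFG by 0.70 and 0.68, with shTRIB3-1 and shTRIB3-2 in turn. SQSTM1, an autophagy receptor that binds KEAP1, rose by 1.03 and 0.88, and BACH1, a repressor that competes with NRF2 for AREs, rose by 0.48 and 0.52.

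A common form of the ARE core is TGACNNNGC, and windows that hold it in the members' promoters are shown here because 5 members carry it beside very different changes. Promoter windows from RefSeq (GRCh38.p14), from 250 bases before to 50 bases after the start, were available for 25 members, and the core was looked for on both strands. It was present for GPX2, GCLM, KEAP1, TXNRD1 and PGD, in 17.1% of the members' windows, of which a gene can have several, against 13.3% of all 35116 windows of that length. KEAP1 held 2 matches and TXNRD1 held 3, and 1 is shown for each gene. None of the matches overlapped TGANTCA, the site of AP-1 factors. Each line gives the strand that carries the core, with the core in capitals, at chr14:64942849-64942877 (plus) for GPX2, chr12:104215670-104215698 (plus) for TXNRD1, chr1:93909446-93909474 (plus) for GCLM, chr19:10502784-10502812 (plus) for KEAP1 and chr1:10398853-10398881 (minus) for PGD.
GPX2: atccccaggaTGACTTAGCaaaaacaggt
TXNRD1: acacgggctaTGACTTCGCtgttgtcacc
GCLM: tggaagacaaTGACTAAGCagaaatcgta
KEAP1: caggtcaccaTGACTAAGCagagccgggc
PGD: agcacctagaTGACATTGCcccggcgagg

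Counted from the RefSeq transcript start that each window was built on, the core began 122 bases before it for GPX2, 99 for TXNRD1, 34 for GCLM, 31 for KEAP1 and 201 for PGD. For KEAP1 and PGD that start, and the core, lie inside the gene as annotated by GENCODE. These 5 genes did not move together: TXNRD1 rose and GPX2 and GCLM fell with both hairpins, PGD moved in opposite directions, and KEAP1 changed little. A match of letters is a description of the sequence and not a measured binding site, and AREs outside these windows were not searched for.

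The genes of glutathione synthesis parted from each other. Glutamate-cysteine ligase makes the first step of glutathione synthesis from a catalytic subunit, GCLC, and a modifier subunit, GCLM. GCLC was at 49.3, 48.4 and 49.1 FPKM in shCtrl, at 57.6, 60.6 and 60.8 with shTRIB3-1, and at 59.6, 58.3 and 60.6 with shTRIB3-2. GCLM was at 19.6, 19.9 and 19.3 FPKM in shCtrl, at 17.5, 18.1 and 17.1 with shTRIB3-1, and at 15.9, 15.6 and 16.8 with shTRIB3-2. GCLC was thus above and GCLM below every control library with either hairpin. GCLC rose by 0.28 (SE 0.0311, adjusted p = 4.10e-06 by limma) with each hairpin, and GCLM changed by -0.16 (SE 0.0396, adjusted p = 0.0033) and -0.28 (SE 0.0396, adjusted p = 3.38e-05). With median centring the GCLM change with shTRIB3-1 was -0.077 and did not pass (adjusted p = 0.0812).

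SLC7A11, the transporter that brings in cystine for glutathione, fell with shTRIB3-2. It was at 10.7, 11.2 and 11.1 FPKM in shCtrl, at 9.91, 10.8 and 9.82 with shTRIB3-1, and at 6.19, 6.70 and 6.64 with shTRIB3-2. The shTRIB3-2 libraries were below all others, at 59.2% of the shCtrl mean (log2 fold change -0.75, SE 0.0510, adjusted p = 4.78e-08 by limma). With shTRIB3-1, the change was -0.11 (95% interval -0.22 to -0.00028) and did not pass (adjusted p = 0.065), and 1 library overlapped the controls. It passed without shTRIB3-1 replicate 2 (-0.15, adjusted p = 0.0215), after TPM scaling (-0.17, adjusted p = 0.0145), with voom in limma on fragments (-0.11, adjusted p = 0.0172) and with a replicate block (-0.11, adjusted p = 0.0453). SLC3A2, the partner chain of the transporter, moved the other way, by 0.50 and 0.31. GSR, which reduces oxidised glutathione, was at 122.5 ± 0.215 FPKM in shCtrl, 132.6 ± 1.30 with shTRIB3-1 and 123.0 ± 2.62 with shTRIB3-2. It rose only by 0.11 with shTRIB3-1 (SE 0.0268, adjusted p = 0.00203 by limma), and not after TPM or quantile scaling (0.060 and 0.036).

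The cytosolic thioredoxin pair rose with both hairpins. TXN reduces disulfides in proteins, and TXNRD1, the selenoenzyme thioredoxin reductase, restores it with NADPH. TXNRD1 was at 190.7, 192.7 and 185.2 FPKM in shCtrl, at 351.7, 383.6 and 366.2 with shTRIB3-1, and at 272.9, 293.1 and 292.7 with shTRIB3-2. The groups formed separate bands, and TXNRD1 reached 193.7% and 151.0% of its control mean (log2 fold change 0.95 and 0.59, SE 0.0396, adjusted p = 6.68e-10 and 3.80e-08 by limma). TXN was at 362.5, 388.5 and 380.0 FPKM in shCtrl, at 509.9, 566.6 and 540.4 with shTRIB3-1, and at 466.3, 503.1 and 472.2 with shTRIB3-2. Every knockdown library was above every control (0.51 and 0.35, SE 0.0451, adjusted p = 5.50e-07 and 1.64e-05 by limma). SRXN1, which repairs overoxidised peroxiredoxins, rose by 0.35 and 0.33 (SE 0.0367). Its value is uncertain, since 90.7% of its exon bases are shared on the same strand with another annotated gene.

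The peroxiredoxins, which reduce hydrogen peroxide with electrons from thioredoxin, divided into genes that rose and genes that fell. Their summed level was 1698.0 ± 50.4 FPKM in shCtrl, 1692.1 ± 43.2 with shTRIB3-1 and 1585.6 ± 42.6 with shTRIB3-2. Within that sum, mitochondrial PRDX3 was at 332.7, 346.3 and 349.6 FPKM in shCtrl, at 234.8, 235.8 and 249.6 with shTRIB3-1, and at 245.6, 242.2 and 246.4 with shTRIB3-2. It fell by 0.51 and 0.49 (SE 0.0329, adjusted p = 3.09e-08 and 4.42e-08 by limma), with no overlap between knockdown and control libraries. Cytosolic PRDX2 fell by 0.48 and 0.41 (SE 0.0361), from 174.3 ± 4.42 to 124.7 ± 3.92 and 131.0 ± 4.85 FPKM. PRDX6, which works with glutathione in place of thioredoxin, fell by 0.25 and 0.34 (SE 0.0331).

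PRDX5 moved the other way. It was at 113.6, 127.4 and 122.2 FPKM in shCtrl, at 172.5, 183.7 and 175.6 with shTRIB3-1, and at 183.2, 195.9 and 176.7 with shTRIB3-2. All 6 knockdown libraries were above the controls (0.55 and 0.61, SE 0.0477, adjusted p = 4.86e-07 and 1.59e-07 by limma). PRDX1, the most abundant of the family, was at 812.2 ± 31.0 FPKM in shCtrl, 922.3 ± 37.4 with shTRIB3-1 and 806.2 ± 25.9 with shTRIB3-2. It rose by 0.18 with shTRIB3-1 (SE 0.0424, adjusted p = 0.00187) and its change was -0.010 (95% interval -0.10 to 0.082) with shTRIB3-2, where quantile normalization gave 0.22 (adjusted p = 3.87e-04 by limma). Of the annotated exon bases of PRDX1 and PRDX2, 29.8% and 12.1% in turn are overlapped by a gene on the other strand.

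PRDX4, the peroxiredoxin of the endoplasmic reticulum, was the least certain of the members that passed with both hairpins. Its changes were 0.11 and 0.095 (SE 0.0386, adjusted p = 0.0248 and 0.0408 by limma). The first did not pass without shCtrl replicate 1 (0.064), shTRIB3-1 replicate 1 (0.097) or shTRIB3-1 replicate 2 (0.10). The second did not pass without shCtrl replicate 1 (0.053), shTRIB3-2 replicate 1 (0.077) or shTRIB3-2 replicate 2 (0.091).

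The deepest fall of the panel with either hairpin was that of a glutathione peroxidase. GPX2, on the minus strand of chromosome 14 from 64939152 to 64942746 (GRCh38), was at 1109.7, 1117.2 and 1107.4 FPKM in shCtrl, at 590.4, 598.3 and 610.6 with shTRIB3-1, and at 558.0, 574.6 and 534.1 with shTRIB3-2. The control and knockdown libraries were far apart and the 2 hairpins close together. GPX2 was at 54.0% of its control level with shTRIB3-1 (log2 fold change -0.89, SE 0.0342, adjusted p = 3.40e-10 by limma) and at 49.99% with shTRIB3-2 (-1.0009, SE 0.0342, adjusted p = 9.37e-11). The call with shTRIB3-2 lay on the threshold. It was lost without shCtrl replicate 2 (-0.9972) or shTRIB3-2 replicate 3 (-0.9728), although GPX2 passed the adjusted p in all 18 alternatives, with changes from -1.03 to -0.95.

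GPX3, the secreted glutathione peroxidase, followed GPX2. It was at 182.3, 180.8 and 183.6 FPKM in shCtrl, at 102.6, 107.6 and 103.9 with shTRIB3-1, and at 95.1, 101.3 and 99.2 with shTRIB3-2. It fell by 0.80 with shTRIB3-1 and fell by 0.89 with shTRIB3-2 (SE 0.0315, adjusted p = 4.41e-10 and 1.29e-10 by limma), and no knockdown library reached a control. GPX1, the ubiquitous cytosolic enzyme, was at 133.4 ± 4.96, 134.0 ± 2.30 and 138.8 ± 3.08 FPKM, with changes of 0.0071 (95% interval -0.066 to 0.080) and 0.058 (-0.014 to 0.13) that did not pass. Of the GPX1 windows of 32 bases, 81.6% also occur in other annotated genes, so its value is uncertain.

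GPX4 reduces lipid peroxides in membranes and so guards against ferroptosis. It was at 206.7, 202.0 and 194.5 FPKM in shCtrl, at 219.7, 213.3 and 220.2 with shTRIB3-1, and at 187.8, 193.8 and 186.0 with shTRIB3-2. The 3 groups did not overlap, but the steps were small: 0.12 (SE 0.0317, adjusted p = 0.00575 by limma) with shTRIB3-1 and -0.087 (SE 0.0317, adjusted p = 0.0247) with shTRIB3-2. The second did not pass without shCtrl replicate 1 (-0.067), shCtrl replicate 2 (-0.084), shTRIB3-2 replicate 1 (-0.082) or shTRIB3-2 replicate 3 (-0.075), and neither passed after quantile normalization (0.069 and -0.059). Summed over GPX1 to GPX4, the level was 1628.1 ± 6.96 FPKM in shCtrl, 1056.1 ± 9.92 with shTRIB3-1 and 982.1 ± 26.3 with shTRIB3-2, which is 64.9% and 60.3% of the control. GPX2 made up 68.3% of that sum in shCtrl and 56.8% and 56.6% with the hairpins.

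Catalase and mitochondrial superoxide dismutase fell with both hairpins. CAT, which breaks down hydrogen peroxide in peroxisomes, was at 81.8, 79.7 and 76.7 FPKM in shCtrl, at 45.8, 44.7 and 46.5 with shTRIB3-1, and at 44.6, 44.8 and 47.4 with shTRIB3-2. It was at 57.5% and 57.4% of its control level (log2 fold change -0.80 with each, SE 0.0354, adjusted p = 1.20e-09 and 9.58e-10 by limma), and the 2 hairpins overlapped. SOD2, which turns superoxide into hydrogen peroxide in mitochondria, fell by 0.42 and 0.37 (SE 0.0413), from 26.3 ± 1.38 to 19.5 ± 0.413 and 20.3 ± 0.406 FPKM. Its cytosolic counterpart SOD1 was at 255.7, 262.6 and 283.1 FPKM in shCtrl, at 316.4, 330.7 and 352.6 with shTRIB3-1, and at 274.5, 294.3 and 265.0 with shTRIB3-2. SOD1 rose by 0.32 (SE 0.0516, adjusted p = 1.24e-04 by limma) with shTRIB3-1, and its libraries with shTRIB3-2 overlapped the controls (0.057, 95% interval -0.056 to 0.17).

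**Figure D3:**
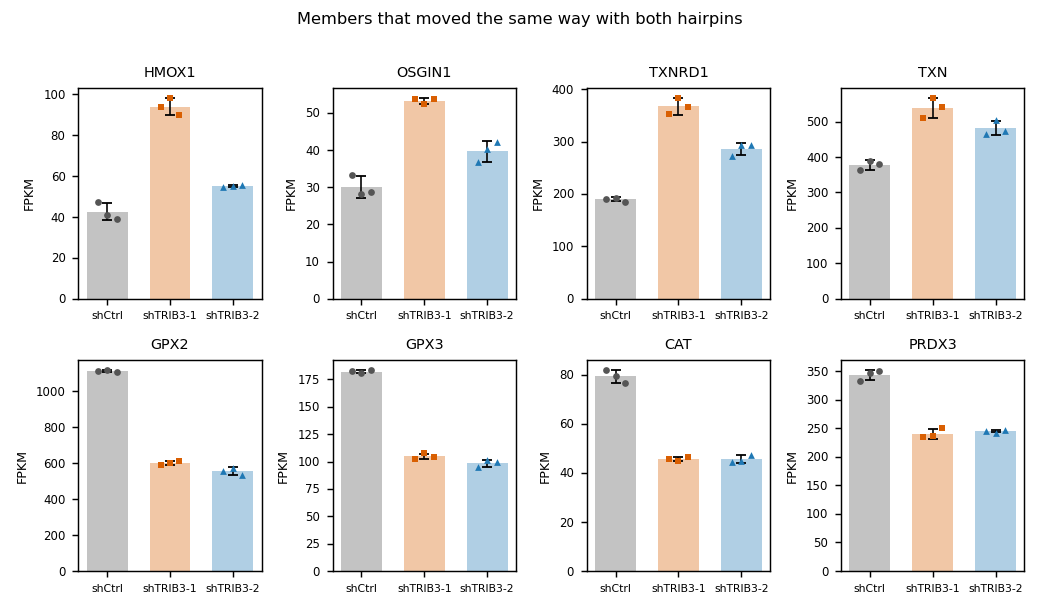
FPKM in each library (points) with the group mean (bar) and SD (error bar, n = 3) for 8 members that passed in the same direction with both hairpins. HMOX1, OSGIN1, TXNRD1 and TXN lie above the control libraries and higher with shTRIB3-1 than with shTRIB3-2, while GPX2, GPX3, CAT and PRDX3 lie below the controls at about the same level with either hairpin.

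Among the classical NRF2 targets, heme oxygenase rose and the quinone reductase fell. HMOX1, the stress-inducible enzyme that breaks down heme, lies on the plus strand of chromosome 22 from 35380361 to 35394214 (GRCh38). It was at 47.2, 41.1 and 39.2 FPKM in shCtrl, at 93.9, 98.4 and 90.0 with shTRIB3-1, and at 54.5, 55.2 and 55.5 with shTRIB3-2. It reached 221.4% of its control level with shTRIB3-1 (log2 fold change 1.15, SE 0.0575, adjusted p = 3.32e-09 by limma) and 129.6% with shTRIB3-2 (0.38, SE 0.0575, adjusted p = 6.94e-05). The 3 groups were apart, and HMOX1 stayed called with shTRIB3-1 in all 18 alternatives.

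OSGIN1, a growth inhibitor induced by oxidative stress, had the same order. It was at 33.4, 28.1 and 28.7 FPKM in shCtrl, at 53.7, 52.4 and 53.8 with shTRIB3-1, and at 36.7, 40.2 and 42.2 with shTRIB3-2 (0.83 and 0.40, SE 0.0631, adjusted p = 1.51e-07 and 8.80e-05 by limma). NQO1, which reduces quinones and is widely used as a readout of NRF2, was at 421.5, 436.2 and 442.1 FPKM in shCtrl, at 376.9, 384.0 and 385.2 with shTRIB3-1, and at 351.1, 359.9 and 347.0 with shTRIB3-2. It fell by 0.18 (SE 0.0304, adjusted p = 1.63e-04 by limma) and 0.30 (SE 0.0304, adjusted p = 2.02e-06), and no knockdown library reached a control. For NQO1, 19.4% of the exon bases are overlapped by a gene on the other strand.

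Pathway genes outside the 32 also went in both directions. Over 5 lists of 77 genes, which include the regulators above and of which 66 were tested, shTRIB3-1 raised 28 and lowered 25, and shTRIB3-2 raised 28 and lowered 30. Over all genes tested the shares were 32.9% up and 41.5% down with the first hairpin, and 35.4% and 40.5% with the second. AKR1B1, an aldose reductase, rose by 1.39 and 0.44. The glutathione transferase GSTA1, which has close copies, fell by 1.75 and 1.69, and ALDH3A2, a fatty aldehyde dehydrogenase, fell by 1.24 and 1.14. FTH1, the heavy chain of ferritin and the parent of many pseudogenes, fell by 0.72 with shTRIB3-2 while its change with shTRIB3-1 was -0.0080.

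The hairpins differed from each other in 21 of the 32 members, and all 21 were lower with shTRIB3-2 than with shTRIB3-1. Over all genes tested, 45.8% passed in that comparison, 25.1% higher and 20.7% lower, and 2.08% were called, against 0 members. With limma on FPKM, 0 members were higher with shTRIB3-2 at an adjusted or an unadjusted p under 0.05, and voom on fragments also gave 0. The split depended on the scaling: with TPM, 1 member was higher (PRDX2) and 17 were lower, and with quantile normalization, 5 were higher (PRDX2, PRDX3, PRDX5, GPX1 and NQO1) and 12 were lower. The median over the members was -0.12, against 0.025 over all genes tested. Among the 21, those of GCLM (-0.13), GPX2 (-0.11), GPX3 (-0.088) and PRDX6 (-0.094) hung on single libraries. GCLM did not pass without shTRIB3-1 replicate 2 (-0.10), shTRIB3-2 replicate 1 (-0.12) or 2 (-0.10), and GPX2 did not without shTRIB3-1 replicate 3 (-0.098) or shTRIB3-2 replicate 3 (-0.083). GPX3 did not pass without shCtrl replicate 2 or 3 (-0.088 each), shTRIB3-1 replicate 2 (-0.068) or 3 (-0.093), or shTRIB3-2 replicate 1 (-0.062) or 3 (-0.093). PRDX6 did not pass without shTRIB3-1 replicate 1 (-0.10), 2 (-0.082) or 3 (-0.10), or shTRIB3-2 replicate 1 (-0.069) or 3 (-0.086).

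HMOX1 differed by -0.77 between the hairpins (SE 0.0575, 95% interval -0.90 to -0.65, adjusted p = 8.57e-07 by limma), SLC7A11 by -0.64 (SE 0.0510, adjusted p = 1.53e-06), OSGIN1 by -0.43 (SE 0.0631, adjusted p = 1.93e-04) and TXNRD1 by -0.36 (SE 0.0396, adjusted p = 1.99e-05). The hairpin with the lower TRIB3 level thus gave the smaller rise of HMOX1, OSGIN1 and TXNRD1, and also of TXN and AKR1B10. It gave the larger fall of NQO1, GCLM, PRDX6, GPX2 and GPX3, which also passed between the hairpins. Under quantile normalization the differences of TXN (0.067), AKR1B10 (-0.040), PRDX6 (-0.028) and GPX2 (0.049) did not pass, and that of NQO1 changed sign (0.084). Those of HMOX1, OSGIN1 and TXNRD1 passed in all 18 alternatives. Whether any of these differences followed the level of TRIB3 was not tested. For 11 members no difference passed, and for GCLC (-0.0033, 95% interval -0.071 to 0.065), CAT (-0.0019, -0.079 to 0.076) and NFE2L2 (0.014, -0.063 to 0.092) the interval kept within 0.1 of 0.

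The pentose phosphate enzymes, which supply NADPH to both the glutathione and the thioredoxin systems, were among the genes that separated the hairpins. PGD, an NADPH-forming enzyme of the pathway, was at 146.4, 146.9 and 146.1 FPKM in shCtrl, at 194.6, 192.1 and 186.9 with shTRIB3-1, and at 139.1, 138.2 and 131.5 with shTRIB3-2. It rose by 0.38 (SE 0.0303, adjusted p = 2.10e-07 by limma) with shTRIB3-1 and fell by 0.10 (SE 0.0303, adjusted p = 0.00742) with shTRIB3-2. The fall did not pass after median centring (-0.053, adjusted p = 0.254). Between the hairpins PGD differed by -0.49 (SE 0.0303, adjusted p = 1.91e-07).

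TKT and TALDO1 carry out the non-oxidative branch of the pathway. TKT was at 129.6, 123.4 and 125.9 FPKM in shCtrl, at 134.8, 131.6 and 131.6 with shTRIB3-1, and at 105.6, 107.7 and 104.9 with shTRIB3-2. Its fall by 0.25 with shTRIB3-2 was clear of the controls (SE 0.0286, adjusted p = 5.38e-06 by limma). Its change of 0.071 with shTRIB3-1 (SE 0.0286, adjusted p = 0.0393) did not pass in 10 of 18 alternatives, among them TPM (0.017) and quantile scaling (7.7e-04), the fit to the 6 libraries compared (0.071) and 7 with 1 library left out: shCtrl replicate 2 (0.055) or 3 (0.069), shTRIB3-1 replicate 1 (0.060), 2 (0.077) or 3 (0.077), and shTRIB3-2 replicate 1 (0.071) or 3 (0.071). TALDO1 was at 171.4 ± 7.49 FPKM in shCtrl, 162.7 ± 1.25 with shTRIB3-1 and 128.6 ± 4.06 with shTRIB3-2. It fell by 0.41 with shTRIB3-2 (SE 0.0358, adjusted p = 4.37e-07 by limma), and its change with shTRIB3-1 was -0.074 (95% interval -0.15 to 0.0040), which did not pass, although it did without shCtrl replicate 3 (-0.10, adjusted p = 0.0263), after TPM scaling (-0.13, adjusted p = 0.00293) and after quantile normalization (-0.094, adjusted p = 0.0299).

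The summed level of PGD, TALDO1 and TKT was 444.1 ± 9.93 FPKM in shCtrl, 486.5 ± 5.66 with shTRIB3-1 and 371.0 ± 8.34 with shTRIB3-2.

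The aldo-keto reductases reduce aldehydes and ketones, including steroids and lipid peroxidation products, and AKR1C1, AKR1C2 and AKR1C3 lie side by side on chromosome 10 between 4963253 and 5107686 (GRCh38). AKR1C2 was at 350.0, 321.5 and 324.3 FPKM in shCtrl, at 354.9, 390.0 and 380.8 with shTRIB3-1, and at 201.7, 208.0 and 210.6 with shTRIB3-2. It rose by 0.18 (SE 0.0428, adjusted p = 0.00253 by limma) with shTRIB3-1, which quantile normalization lowered to 0.073 (adjusted p = 0.142), and fell by 0.68 (SE 0.0428, adjusted p = 2.22e-08) with shTRIB3-2. Its difference between the hairpins, -0.86 (SE 0.0428, 95% interval -0.95 to -0.77, adjusted p = 3.49e-08), was the largest among the members.

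AKR1C1 was at 326.9, 316.8 and 298.9 FPKM in shCtrl, at 354.7, 417.2 and 395.8 with shTRIB3-1, and at 304.6, 320.1 and 321.5 with shTRIB3-2. It rose by 0.31 with shTRIB3-1 (SE 0.0545, adjusted p = 2.62e-04 by limma) and overlapped the controls with shTRIB3-2 (0.0062, 95% interval -0.11 to 0.13). AKR1C3 was at 353.8 ± 5.69, 358.2 ± 7.47 and 292.1 ± 3.89 FPKM in the 3 groups, and it fell by 0.28 with shTRIB3-2 (SE 0.0292, adjusted p = 2.69e-06 by limma). AKR1B10, on chromosome 7, rose with both hairpins, by 0.36 and 0.19 (SE 0.0395). Of its 32-base windows, 34.9% also occur in other annotated genes, most often AKR1B15 (20.5%), so its value is uncertain. All 4 aldo-keto reductases were lower with shTRIB3-2 than with shTRIB3-1.

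The 3 AKR1C genes summed to 999.9 ± 24.0 FPKM in shCtrl, 1122.7 ± 57.3 with shTRIB3-1 and 814.3 ± 16.8 with shTRIB3-2. AKR1C2 made up 33.2% of that sum in shCtrl, 33.4% with shTRIB3-1 and 25.4% with shTRIB3-2. These genes are close copies: 57.5% of the 32-base windows of AKR1C2 exons also occur in AKR1C1, and 28.1% of those of AKR1C1 occur in AKR1C2. For AKR1C3, 17.8% occur in AKR1C1 and 18.4% in AKR1C2. How fragments that fit several of them were counted is not given in the sources used here, so the levels of the single genes are less certain than their sum.

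**Figure D4:**
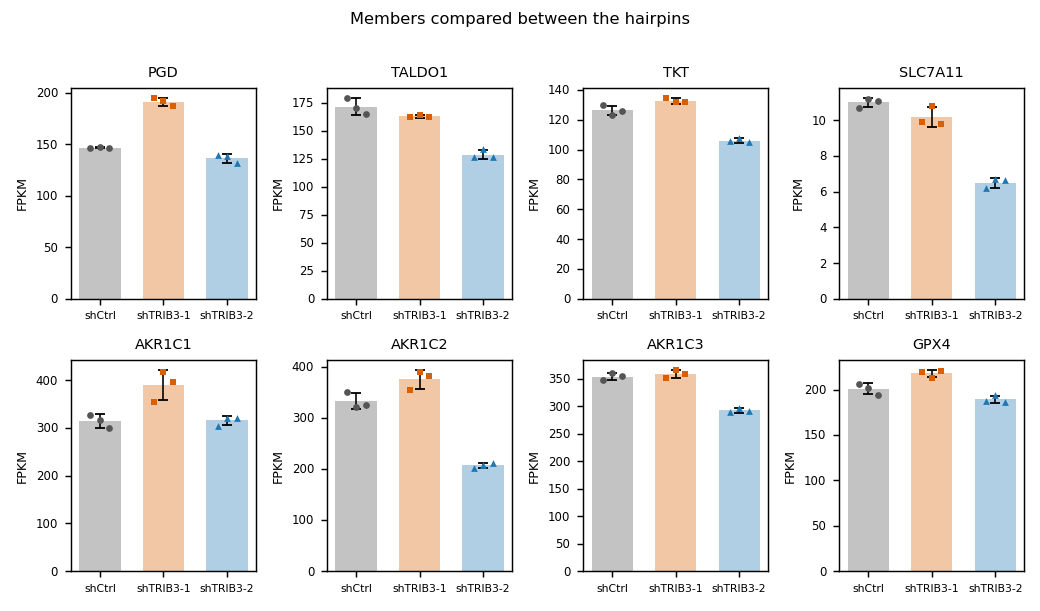
FPKM in each library (points) with the group mean (bar) and SD (error bar, n = 3) for 8 members compared between the hairpins: the pentose phosphate enzymes PGD, TALDO1 and TKT, the cystine transporter SLC7A11, AKR1C1, AKR1C2, AKR1C3 and GPX4. In each panel the 3 shTRIB3-2 libraries lie below the 3 shTRIB3-1 libraries, by the largest step for AKR1C2 (206.8 against 375.2 FPKM on average).

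Summed over all 32 genes, the level was 6861.3 ± 33.4 FPKM in shCtrl, 6938.8 ± 180.7 with shTRIB3-1 and 6011.5 ± 134.9 with shTRIB3-2, which is 101.1% and 87.6% of the control.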

How the data were processed

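RNA-seq of 9 HepG2 libraries (3 shCtrl, 3 shTRIB3-1, 3 shTRIB3-2) was analysed from 1 table of FPKM values per gene symbol, computed and deposited by the authors. The study's methods name STAR for alignment to GRCh38, and the submitters' processing notes name HTSeq and R 3.2.0. The annotation release, the strand setting and the treatment of fragments that fit several genes are not given in the sources used here. The methods describe a strand-specific kit and glutamine-deprived cells, whereas the labels name another kit and full medium. FPKM divides by 1 length and 1 total per library, so it does not correct for changes in composition. Groups and replicate numbers came from the labels, which do not say that libraries came from separate cultures. The p-values therefore set each difference against the spread between these libraries. Whether the differences would hold over separate infections cannot be read from them.

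Genes with at least 1 FPKM in at least 3 of 9 libraries (11265) were tested on log2(FPKM + 0.1) with limma 3.58.1 in R 4.3.3 (group means of all 9 libraries, moderated with a trend, two-sided, Benjamini-Hochberg adjustment over all tested genes). The 32 members and the pathway lists were chosen with earlier results of these data known. By the rule for named genes every member was accounted for, with values in every library for members called in any comparison, NFE2L2, KEAP1 and members of opposite sign between the hairpins. Others were given in full, and genes outside the 32 were named from the lists, after their values were seen. Fragments per library were recovered from the steps of the FPKM values (100% of 172769 values within 0.02 of a whole number) and gave totals of 34206726 to 36311029. The totals of 9 of 9 simulated libraries were recovered exactly. Pairs of replicates differed by more than sampling noise (chi-square per degree of freedom 3.13 to 7.54). For shTRIB3-1 against shCtrl, limma recovered 100% of genes simulated with a log2 fold change of 1.5 or 2 in size, over 10904 genes tested. The simulation changed 200 genes, each by more than the threshold of 1, so it does not show how well the smaller changes reported here would be recovered. Promoter windows came from RefSeq (GRCh38.p14), and exon overlap and shared windows of 32 bases from the GENCODE annotation of GRCh38. The alternatives were a pseudocount of 1, no filter, a filter of 5 FPKM, median centring, TPM, quantile normalization, a replicate block, a fit to the 2 groups compared, voom in limma on the recovered fragments, and leaving out each library.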

Additional observations from a re-analysis of the deposited data

Results flagged for a closer look

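For 4 members the 2 hairpins passed against shCtrl in opposite directions and the difference between the hairpins, shTRIB3-2 against shTRIB3-1, passed as well (limma, Benjamini-Hochberg adjustment). The difference was -0.86 on the log2 scale for AKR1C2, -0.49 for PGD, -0.32 for TKT and -0.20 for GPX4, with adjusted p of 3.49e-08, 1.91e-07, 3.44e-06 and 2.90e-04, and it passed in all 18 alternatives for each. The opposite signs against shCtrl were less secure than the difference. Over the alternatives, the range for AKR1C2 was 0.073 to 0.26 with shTRIB3-1, and -0.71 to -0.63 with shTRIB3-2. In the same order it was 0.33 to 0.46 and -0.13 to -0.053 for PGD, 7.7e-04 to 0.15 and -0.30 to -0.20 for TKT, and 0.061 to 0.19 and -0.11 to -0.036 for GPX4. The smaller of each pair of changes missed the adjusted threshold in 1 of 18 alternatives for AKR1C2, 1 for PGD, 10 for TKT and 6 for GPX4.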

How the results depend on the processing

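Of 96 values (32 members in 3 comparisons) under 18 alternatives, 1728 in all, 1603 kept their direction and their side of the threshold, 68 no longer passed, 15 came to pass and 42 changed sign. Of the 75 values that passed, 54 kept passing in the same direction throughout. Members called with shTRIB3-2 were 0 with a pseudocount of 1, with median centring and with quantile normalization, and 0 to 1 with 1 library left out. Members called with shTRIB3-1 were 2 with median centring (HMOX1 and TXNRD1) and 2 with quantile normalization (HMOX1 and GPX2). The median change of the members moved to 0.17, 0.035 and 0.018 with shTRIB3-1 under median centring, TPM and quantile normalization, to -0.060 with shTRIB3-2 under median centring, and to -0.15, -0.090 and -0.065 between the hairpins under those same 3. Median centring and TPM scaling shift all genes of a library by nearly the same amount. They moved the median of all genes by 0.08 and -0.055 with shTRIB3-1, and by -0.028 and 0.031 between the hairpins. With shTRIB3-2, median centring moved it by 0.051. Quantile normalization moved it by 0.044 with shTRIB3-1 and by -0.00036 between the hairpins, and why the members moved otherwise was not tested. Scalings moved the median of all genes by at most 0.08. Every member had at least 1872 fragments in every library. The smallest change that could pass was set by the moderated spread between libraries, and the part of counting error in that spread was not measured.

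The sign changes were near 0 apart from those of quantile normalization. With shTRIB3-1 they were KEAP1 0.023 and TALDO1 0.0056 (median centring), AKR1C3 -0.037 and GPX1 -0.047 (TPM), and AKR1C3 -0.061 and GPX1 -0.069 (quantile). With shTRIB3-2 they were PRDX1 0.041 (median centring) and 0.22 (quantile), AKR1C1 -0.017 and GSR -0.017 (TPM), and GSR -0.022 (quantile). Between the hairpins they were NFE2L2 -0.014 and PRDX3 -5.7e-05 (median centring), CAT 0.029, GCLC 0.028, PRDX4 0.019 and SRXN1 0.0097 (TPM), and CAT 0.0067, GCLC 0.018, GPX2 0.049, NQO1 0.084, SRXN1 0.026 and TXN 0.067 (quantile). With 1 library left out, GPX1 with shTRIB3-1 ran from -0.024 to 0.025, AKR1C1 with shTRIB3-2 from -0.029 to 0.035, GSR from -0.0071 to 0.023 and PRDX1 from -0.038 to 0.017, and between the hairpins CAT ran from -0.030 to 0.013, GCLC from -0.029 to 0.011, NFE2L2 from -0.019 to 0.043, PRDX4 from -0.030 to 0.010 and SRXN1 from -0.059 to 0.0051.

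With the replicate number as a block, 28 members passed with shTRIB3-1 in place of 27, SLC7A11 being added (-0.11, adjusted p = 0.0453 by limma), and no other member's call changed. The numbers were not taken to pair the libraries, since the study's methods name no pairing. In their deviations, libraries of the same number correlated at -0.0742 to 0.0933, and those of other numbers at -0.0756 to 0.0479. Of 18 library and group pairs, 12 correlated best with their own number, so these values do not settle whether the libraries were paired.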
